A study of Bos taurus with 79 samples.

Results

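Endometrium of pregnant heifers with normal progesterone was compared between day 13 (5 arrays) and day 7 (5 arrays) of early pregnancy. The 10 arrays were chosen by their titles out of 79 in the series, and every probe set with a gene symbol entered the description. All animals of the series were cross-bred beef heifers whose estrus had been synchronized. Those described here were inseminated and found pregnant, received no progesterone device, and were slaughtered on day 13 or on day 7. The series also holds day 5 and day 16, cyclic heifers that were not inseminated, and heifers that carried a progesterone releasing intravaginal device (PRID) between day 3 and slaughter. For comparison, the same interval was taken in pregnant heifers with a PRID (high progesterone, 5 arrays on day 13 and 5 on day 7) and in cyclic heifers with normal progesterone (5 arrays on day 13 and 5 on day 7). The labels name each array a biological replicate and do not say how animals map to arrays beyond that. The RNA came from strips of whole endometrium, so the values pool epithelium, stroma and vessels, and fewer cells of a type cannot be told apart from less RNA per cell.

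In cattle the corpus luteum secretes progesterone through this interval, and the endometrial epithelium answers by losing its own progesterone receptor and by changing what it secretes into the uterine lumen. That fluid, called histotroph, carries the sugars, amino acids, lipids and proteins on which the unattached conceptus depends. On day 7 the embryo is a morula or blastocyst that has just reached the uterus, and by day 13 the blastocyst is about to elongate and its trophectoderm begins to secrete interferon tau, the signal by which a ruminant conceptus maintains the corpus luteum.

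Expression was given as log2 values per probe set, 1 array per sample. The median of each of the 10 arrays lay between 4.97 and 5.12. Pearson correlations between arrays over 24016 probe sets were 0.986 to 0.991 within day 13, 0.9842 to 0.9888 within day 7, and 0.9579 to 0.9751 between the days. A mean under 3 was taken as close to the floor of the scale, and 7527 probe sets (31.3%) were there on both days. A difference against such a level is a lower limit.

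Of 24016 probe sets, 4413 differed between day 13 and day 7 at an adjusted p under 0.05 (limma, Benjamini-Hochberg), which is 18.4% of those tested. They comprised 2110 that were higher on day 13 (8.79%) and 2303 that were lower (9.59%). At least 2-fold changes numbered 746 upward (3.11%) and 812 downward (3.38%). Among 9155 named genes, each represented by 1 probe set, 831 rose (9.08%) and 1400 fell (15.3%), so 24.4% changed, and the median difference over all of them was -0.03. The arrays of the 2 days did not overlap for 805 named genes that were higher (8.79%) and 1255 that were lower (13.7%).

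The 15 largest rises and the 15 largest falls were taken from called genes whose arrays of the 2 days did not overlap, so the separation of the days in those genes was fixed by the choice and is no result. The largest rise belonged to IGFBP1, which encodes a secreted binding protein of insulin-like growth factors. IGFBP1 stood at log2 values of 10.66, 9.01, 10.74, 10.42 and 10.57 on day 13, against 2.94, 2.96, 2.91, 2.93 and 2.89 on day 7. All day 7 arrays were at the floor and all day 13 arrays were far above it, with array 2 the lowest of them. The log2 difference was 7.35 ± 0.47 (SE; adjusted p = 1.94e-19). The mean of IGFBP1 was 2.76 on day 5 and 10.68 on day 16, so the step lay between days 7 and 13.

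SLC39A2, a zinc importer, had 8.79, 10.89, 9.32, 10.10 and 11.99 on day 13, against 2.13, 4.38, 3.55, 3.53 and 2.90 on day 7. The day 13 arrays spread over more than 3 log2 units, with array 5 highest, and the difference was 6.92 ± 0.63 (adjusted p = 1.62e-13). MEP1B, the beta subunit of the secreted and membrane-bound metalloprotease meprin, had 8.90, 9.21, 9.57, 9.16 and 8.18 on day 13, against 3.10, 2.42, 3.08, 2.46 and 2.17 on day 7. Array 5 was the lowest of day 13, and MEP1B rose by 6.36 ± 0.44 (adjusted p = 1.01e-17).

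Further large rises came from genes of sugar, serine and prostaglandin metabolism. HKDC1, a hexokinase-like protein, rose by 4.79 ± 0.41 to a mean of 7.37 on day 13, against 2.58 on day 7. PSPH, the enzyme that releases serine in the last step of its synthesis, rose by 4.47 ± 0.52. PTGS2, the inducible cyclooxygenase that makes the precursor of prostaglandins, had 8.38, 8.37, 9.18, 9.09 and 8.56 on day 13, against 4.50, 5.44, 4.28, 3.36 and 3.77 on day 7, a difference of 4.45 ± 0.59 (adjusted p = 1.56e-08). Arrays 3 and 4 were the highest of day 13, and 2 of the 3 probe sets of PTGS2 passed. Its course was not steady across pregnancy, with means of 6.24 on day 5, 4.27 on day 7, 8.72 on day 13 and 9.37 on day 16.

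MSTN, the secreted TGF-beta family member myostatin, rose by 4.02 ± 0.74 (adjusted p = 2.54e-05). Its values were 7.76, 7.05, 7.41, 6.54 and 7.90 on day 13, against 3.51, 3.71, 2.91, 3.27 and 3.15 on day 7, with array 4 the lowest of day 13. Unlike IGFBP1, the MSTN mean was lower again on day 16, at 5.52, against 7.33 on day 13. CST6, a secreted inhibitor of cysteine proteases, had 12.79, 12.52, 12.71, 13.01 and 12.62 on day 13, against 8.96, 8.73, 8.68, 9.14 and 8.86 on day 7, and rose by 3.85 ± 0.34 with little spread on either day. MAP2, a microtubule-associated protein, rose by 3.94 ± 0.32, and RAB3B, a small GTPase of secretory vesicles, by 3.84 ± 0.54. MYL3, a myosin light chain, rose by 3.96 ± 0.39, HCRTR1, an orexin receptor, by 3.94 ± 0.37 and LY6G6C, a small anchored surface protein, by 3.85 ± 0.72. For HCRTR1 only 1 of 3 probe sets passed. The remaining members of the 15 largest rises, SLC5A1 and CLDN4, are described with their groups.

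UPK1B, a tetraspanin of the uroplakin family found in the apical membrane of epithelium, fell the most among genes with an established symbol. UPK1B had 2.31, 4.64, 5.21, 2.77 and 3.65 on day 13, against 12.03, 10.95, 11.55, 9.14 and 10.87 on day 7. Arrays 1 and 4 of day 13 were at the floor, and the difference was -7.19 ± 0.52 (adjusted p = 3.41e-17). ANPEP, an aminopeptidase of apical membranes, had 4.39, 5.26, 4.37, 4.09 and 4.08 on day 13, against 10.80, 11.32, 10.37, 10.47 and 10.80 on day 7, and fell by 6.31 ± 0.50 (adjusted p = 1.1e-15). LTF, the secreted iron-binding antimicrobial protein lactotransferrin, had 8.29, 6.0, 7.25, 7.84 and 8.35 on day 13, against 12.33, 12.60, 12.47, 12.65 and 12.44 on day 7. LTF was tight on day 7 and spread on day 13, with array 2 lowest, and fell by 4.95 ± 0.77 (adjusted p = 8.74e-07). An uncharacterised locus, LOC783399, outside the naming rule and seen only when its value was plotted, fell by 9.06.

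Several of the other large falls were membrane transporters, secreted peptides or enzymes of small-molecule metabolism. UNC93A, a membrane protein related to transporters, fell by 5.14 ± 0.54, and SLC6A20, a transporter of proline-like amino acids, by 4.69 ± 0.71. SLC37A4, which carries glucose 6-phosphate into the endoplasmic reticulum, fell by 4.25 ± 0.41. TFF3, a trefoil peptide secreted with mucus, had 4.25, 5.22, 4.71, 6.46 and 4.70 on day 13, against 10.00, 9.99, 8.72, 9.30 and 8.61 on day 7, a fall of 4.26 ± 0.42. EDN3, a vasoactive endothelin peptide, fell by 4.19 ± 0.56, and its mean was highest on day 7, at 10.28, against 7.94 on day 5. ACP5, the tartrate-resistant acid phosphatase, fell by 4.37 ± 0.42 and likewise had its highest mean on day 7 (11.61), against 9.90 on day 5. Among enzymes, BDH1 of ketone body metabolism fell by 4.26 ± 0.42, GNMT, a glycine methyltransferase, by 4.10 ± 0.42, and PDXK, which activates vitamin B6, by 4.10 ± 0.43. DAPL1 fell by 4.71 ± 0.57 and BSP3, named for the binder of sperm proteins of seminal plasma, by 3.94 ± 0.58.

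**Figure D1:**
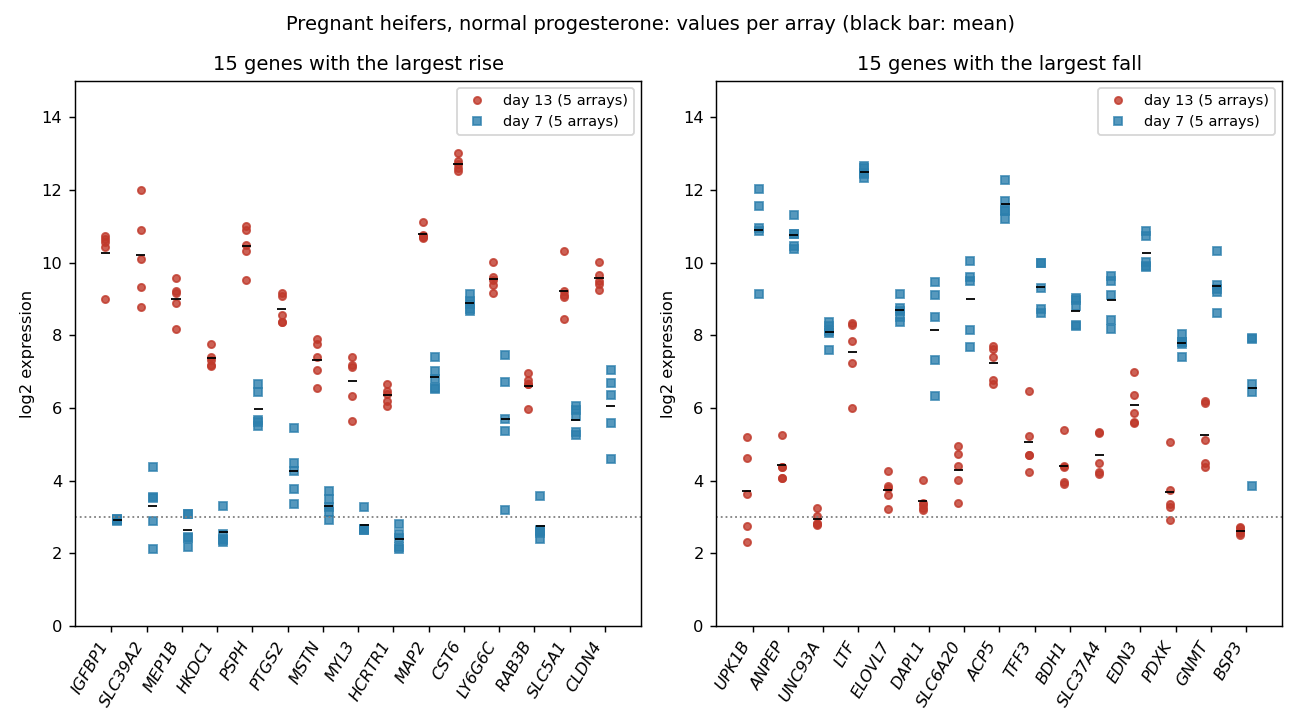
Log2 expression per array of the 15 genes with the largest rise (left) and the 15 with the largest fall (right) among those the naming rule admits, with day 13 (red circles) left of day 7 (blue squares), 5 arrays each, and black bars at the means. The dotted line at 3 marks the floor, and the rule admitted no gene whose arrays of the 2 days overlap; IGFBP1 is at the floor on every day 7 array and UPK1B is above 9 on every day 7 array.

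Genes of histotroph and conceptus elongation were considered next. The counts of this and each later list stand beside the shares of all named genes, 9.08% higher and 15.3% lower. Of 41 measured, 17 rose and 8 fell, with a median difference of 0.34 against -0.03 over all named genes, and the list was partly drawn from published work on these animals, so its direction is not independent evidence. Averaged over the list, expression was 7.84, 7.70, 7.84, 7.93 and 7.83 on day 13, against 7.31, 7.19, 7.39, 7.22 and 7.30 on day 7, without overlap. Beside IGFBP1, MEP1B, MSTN and CST6, the rises included RBP4, the plasma retinol carrier (2.17 ± 0.30), and CLU, the secreted chaperone clusterin (1.47 ± 0.15). CCN2, a matrix-associated growth factor modulator, rose by 2.46 ± 0.30, with 12.87, 13.11, 13.50, 13.42 and 13.39 on day 13, against 10.74, 10.89, 11.12, 10.67 and 10.59 on day 7. STC1, the hormone stanniocalcin, rose by 1.67 ± 0.50, a call that was lost without array 4 of day 13. The falls, apart from ANPEP and LTF, included SPP1, the secreted integrin ligand osteopontin, which had 4.01, 2.75, 3.14, 3.23 and 3.27 on day 13, against 6.99, 7.90, 7.19, 6.0 and 6.87 on day 7 (difference -3.71 ± 0.65). The count of falls was 5 without array 4 of day 13, 5 without array 1 of day 7 and 4 without array 5 of day 7.

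Transport of sugars changed in opposite directions by carrier. Of 13 hexose and monocarboxylate transporters, 2 rose and 4 fell (median -0.01). SLC5A1, the sodium-coupled glucose importer of apical membranes, had 9.10, 8.44, 9.21, 10.33 and 9.05 on day 13, against 5.96, 5.26, 6.06, 5.78 and 5.35 on day 7, and rose by 3.54 ± 0.47 (adjusted p = 1.41e-08). SLC2A1, the facilitative glucose transporter of most cells, rose by 1.19 ± 0.27. Array 4 of day 13 was the highest for SLC5A1, and both genes had higher means again on day 16 (10.13 and 11.28). SLC2A5, the fructose transporter, was at the floor on all day 13 arrays, with 2.16, 2.12, 2.15, 2.16 and 2.13, against 2.22, 3.07, 6.70, 6.01 and 9.44 on day 7. Its day 7 arrays ranged between floor and high expression, and the difference of -3.34 ± 0.93 (adjusted p = 0.00604) no longer passed without array 5 of day 7. SLC16A3, an exporter of lactate, fell by 1.99 ± 0.31 at the probe set representing it, although only 1 of its 3 probe sets passed.

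Glycolysis and glucose handling had 15 members that fell and 3 that rose among 34 measured (median -0.38). The mean over its members was 6.31, 6.41, 6.24, 6.23 and 6.20 on day 13, against 6.84, 6.67, 6.73, 6.61 and 6.85 on day 7, without overlap. LDHA, which converts pyruvate to lactate, had 9.99, 9.57, 9.51, 9.75 and 9.54 on day 13, against 12.07, 11.38, 11.87, 11.75 and 11.89 on day 7. That fall of 2.12 ± 0.22 (adjusted p = 1.1e-11) was called at 2 of 3 probe sets. Paralogous enzymes that set the level of an activator of phosphofructokinase went opposite ways: PFKFB2 fell by 2.60 ± 0.44 while PFKFB3 rose by 1.39 ± 0.34. PCK2, the mitochondrial enzyme that makes phosphoenolpyruvate, fell by 2.13 ± 0.31. PDK4, the kinase that shuts pyruvate out of the mitochondrial oxidation pathway, rose by 1.41 ± 0.41.

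Serine and one-carbon metabolism had 5 falls and 1 rise among 15 genes (median -0.15). PSPH, the gene that rose, had 10.49, 9.53, 11, 10.89 and 10.32 on day 13, against 6.67, 6.43, 5.50, 5.67 and 5.62 on day 7. PSAT1, which acts directly before PSPH in serine synthesis, had 11.61, 11.89, 11.68, 11.75 and 10.09 on day 13, against 13.43, 13.40, 13.21, 12.27 and 12.91 on day 7, and fell by 1.64 ± 0.36. Enzymes of consecutive steps therefore changed in opposite directions. MTHFD2 and SHMT2, mitochondrial enzymes of folate-bound one-carbon metabolism, fell by 2.92 ± 0.48 and 1.49 ± 0.20. CBS, which joins serine to homocysteine, fell by 1.77 ± 0.23. All probe sets of PSPH (2), PSAT1 (3) and MTHFD2 (4) passed in the same direction.

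Fatty acid and triglyceride metabolism was divided, with 8 rises and 10 falls among 38 genes (median -0.04). ELOVL7, an elongase of long fatty acids, had 4.28, 3.79, 3.60, 3.23 and 3.87 on day 13, against 8.67, 9.15, 8.75, 8.50 and 8.38 on day 7, the largest fall of the list at 4.94 ± 0.37 (adjusted p = 6.94e-17). ELOVL5, another elongase, fell by 1.95 ± 0.24, and SCD, the desaturase that makes oleate, by 1.47 ± 0.38. LPL, the lipase that frees fatty acids from lipoproteins, had 6.46, 7.48, 7.09, 6.43 and 6.83 on day 13, against 10.25, 9.95, 11.16, 9.36 and 8.91 on day 7, and fell by 3.07 ± 0.72. In contrast, FADS2, a desaturase of polyunsaturated fatty acids, rose by 1.82 ± 0.28 and SLC27A2, a fatty acid transporter and acyl-CoA synthetase, by 2.92 ± 0.46. DGAT2, which makes triglyceride from diglyceride, had 9.85, 8.84, 7.38, 8.92 and 6.81 on day 13, against 5.98, 6.98, 5.84, 5.11 and 5.70 on day 7. It rose by 2.44 ± 0.62 (adjusted p = 0.00249), with array 5 of day 13 inside the day 7 range. FABP3, a cytoplasmic fatty acid carrier, fell by 2.11 ± 0.70 and is described with the high progesterone heifers.

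Cholesterol synthesis had 5 rises and 2 falls among 18 genes, yet its median difference was -0.22. HMGCS1, which commits acetyl units to the sterol pathway, rose by 1.25 ± 0.26, and SQLE, the squalene epoxidase, by 1.29 ± 0.30. TM7SF2, a sterol reductase late in the pathway, fell by 1.30 ± 0.30. The list mean overlapped, at 7.68 to 8.35 on day 13 against 7.93 to 8.12 on day 7. The rises numbered 3 without array 3 of day 13 and 3 without array 3 of day 7, and the falls 1 without array 1 or array 5 of day 13 or without array 4 of day 7.

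The respiratory chain and ATP synthase moved together more than any other list examined by share of members called. Of 62 measured members, 51 fell and 0 rose, and all 62 differences were negative, between -1.76 and -0.04, with a median of -0.57 against -0.03 over all named genes. By complex, 24 of 29 subunits of complex I, 2 of 4 of complex II, 5 of 7 of complex III with cytochrome c, 8 of 9 of complex IV and 12 of 13 of the ATP synthase fell. The list mean was 10.10, 10.27, 10.00, 10.06 and 9.89 on day 13, against 10.83, 10.68, 10.57, 10.51 and 10.74 on day 7. No day 13 array reached the lowest day 7 array.

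Most members changed by less than 2-fold, and 6 fell by at least that much. ATP5MC1, a subunit of the rotating ring of ATP synthase, had 7.55, 7.97, 7.59, 7.56 and 7.06 on day 13, against 9.68, 9.43, 9.08, 8.90 and 9.42 on day 7 (difference -1.76 ± 0.19, adjusted p = 6.51e-11). NDUFB6, an accessory subunit of complex I, had 9.40, 9.41, 9.18, 9.24 and 9.07 on day 13, against 10.86, 10.70, 10.85, 10.22 and 10.52 on day 7 (difference -1.37 ± 0.15). COX5A, a subunit of complex IV, fell by 1.25 ± 0.17. In each of these the days were fully separated. The list mean was 10.83 on day 5 and 10.08 on day 16, so the lower level on day 13 was close to that of day 16.

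The endoplasmic reticulum and secretory pathway fell similarly, with 29 falls and 4 rises among 50 genes (median -0.48). The list mean was 9.66, 9.73, 9.73, 9.69 and 9.69 on day 13, against 10.00, 10.07, 10.00, 10.18 and 10.20 on day 7, so the day 13 arrays lay close together and below every day 7 array. TMED3, a cargo receptor between the endoplasmic reticulum and the Golgi apparatus, fell by 2.28 ± 0.24, and SEC61A1, the channel through which new secretory proteins enter the reticulum, by 1.03 ± 0.17. SEC11C, a catalytic subunit of the signal peptidase of the same membrane, went the other way: it had 11.80, 11.51, 10.82, 11.77 and 11.41 on day 13, against 9.89, 10.64, 10.24, 10.41 and 9.96 on day 7, a rise of 1.23 ± 0.17. Of 28 proteasome genes 6 fell (21.4%) and 0 rose (median -0.19). Of 25 glycosyltransferases 6 fell (24.0%) and 1 rose (median -0.10). FUT2, which fucosylates the glycans of secreted mucins, was at the floor on day 13 with 2.24, 2.31, 2.11, 1.87 and 1.88, against 5.49, 6.68, 4.69, 6.65 and 6.07 on day 7 (difference -3.83 ± 0.38). Redox and detoxification genes had 8 falls (18.2%) and 3 rises (6.82%) among 44 (median -0.18). These shares were near those of all named genes, 15.3% lower and 9.08% higher.

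**Figure D2:**
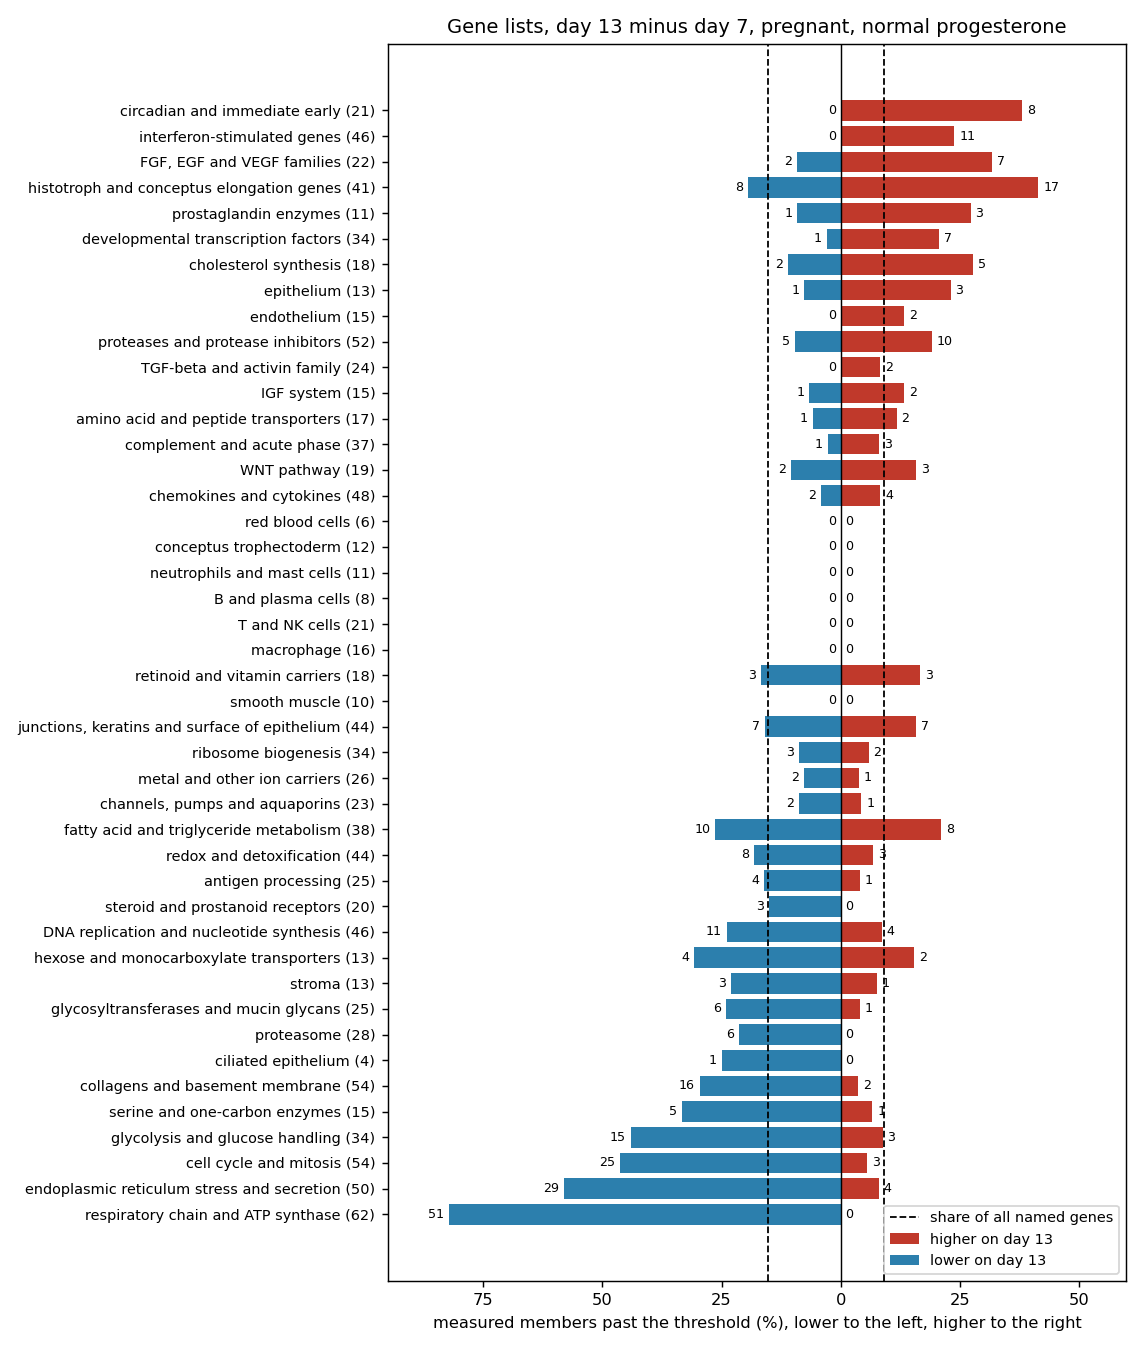
Percent of measured members of each of 44 gene lists that were lower (blue, left) or higher (red, right) on day 13 than on day 7 at an adjusted p under 0.05, with counts beside the bars, measured members in brackets and dashed lines at the shares of all named genes (15.3% lower, 9.08% higher). The respiratory chain has 51 of 62 members to the left and none to the right.

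Cell cycle and mitosis genes were lower on day 13, with 25 falls and 3 rises among 54 genes (median -0.92). Their mean was 4.39, 4.26, 4.25, 4.31 and 4.34 on day 13, against 4.80, 5.10, 4.74, 5.77 and 6.0 on day 7. The groups did not overlap, but arrays 4 and 5 of day 7 stood above the other 3. Without both, 10 members fell, and without array 4 or array 5 alone, 15. UBE2C, which tags mitotic cyclins for destruction, had 2.58, 2.63, 2.55, 2.79 and 2.76 on day 13, against 5.71, 6.04, 4.28, 7.99 and 7.81 on day 7 (difference -3.71 ± 0.61, adjusted p = 2.51e-06). BIRC5, the mitotic regulator survivin, had 2.45, 2.38, 2.39, 2.42 and 2.39 on day 13, against 5.13, 5.15, 3.19, 6.83 and 6.79 on day 7 (difference -3.01 ± 0.60). For both the day 13 arrays were at the floor, so these are lower limits.

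NUSAP1, a spindle protein, fell by 3.32 ± 0.53, CENPF, a kinetochore protein, by 2.42 ± 0.50, and SPC24, also of the kinetochore, by 3.40 ± 0.46. SPC24 had 8.20, 7.14, 6.75, 7.01 and 7.69 on day 13, against 11.23, 11.08, 10.56, 10.21 and 10.71 on day 7, and arrays 4 and 5 were not its highest on day 7. The 3 members that rose were CDKN1A, an inhibitor that halts the cycle (1.94 ± 0.35), CDCA7 (1.81 ± 0.30) and CCND3, a D-type cyclin (1.17 ± 0.16). Of 46 genes of DNA replication and nucleotide synthesis, 11 fell and 4 rose (median -0.18), and the falls numbered 6 without array 5 of day 7 and 4 without arrays 4 and 5. RRM2, which supplies deoxynucleotides, had 2.71, 3.13, 3.01, 3.41 and 3.01 on day 13, against 4.91, 5.58, 3.44, 7.28 and 7.66 on day 7 (difference -2.72 ± 0.60). UHRF1, which maintains DNA methylation at replication, fell by 1.55 ± 0.53, a call lost when any of 5 arrays was left out.

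Collagens and basement membrane genes had 16 falls and 2 rises among 54 (median -0.29). Averaged over members, the level was 8.09, 8.13, 8.04, 7.73 and 8.15 on day 13, against 8.28, 8.29, 8.31, 8.41 and 8.83 on day 7, where array 4 of day 13 was lowest and array 5 of day 7 highest. Without array 4 of day 13 there were 10 falls, and without arrays 4 and 5 of day 7 there were 7. COL1A1, the main chain of type I collagen, had 10.29, 10.19, 9.69, 9.30 and 9.61 on day 13, against 10.83, 10.58, 10.50, 11.41 and 12.25 on day 7 (difference -1.30 ± 0.31, adjusted p = 0.000982). ITGA2, a collagen receptor subunit, fell by 1.90 ± 0.37. MFAP5, a microfibril protein, fell by 1.91 ± 0.61 with overlapping arrays, a call lost without array 3 or 4 of day 13 or array 5 of day 7. EFEMP1, a fibulin, rose by 1.51 ± 0.45.

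Proteases and their inhibitors had 10 rises and 5 falls among 52 genes (median 0.14), and the falls numbered 2 without array 4 of day 13, 3 without array 5 of day 7 and 2 without arrays 4 and 5 of day 7. DPP4, a membrane dipeptidase, had 7.54, 6.75, 7.04, 8.42 and 7.69 on day 13, against 4.28, 5.88, 4.01, 4.20 and 4.05 on day 7, and rose by 3.00 ± 0.47. Every DPP4 array of day 13 was above every array of day 7. MEP1B, of the same list, had the larger rise given above, and ANPEP, also of this list, had the fall given above. ADAMDEC1, a disintegrin-like protease, rose by 1.86 ± 0.60 and was not called without array 2 of day 7.

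Epithelial junctions and surface proteins had 7 rises and 7 falls among 44 genes (median -0.02). CLDN4, a tight junction claudin, had 9.66, 9.42, 9.24, 10.02 and 9.51 on day 13, against 6.70, 7.05, 6.37, 4.61 and 5.58 on day 7, and rose by 3.51 ± 0.37 (adjusted p = 2.48e-11). CGN, the junction scaffold cingulin, rose by 2.19 ± 0.22, and TJP3, another junction scaffold, by 1.29 ± 0.29. In the other direction GJB1, a gap junction connexin, fell by 2.31 ± 0.38 at the probe set representing it (1 of 3 passed), and CLDN10, a claudin that forms ion pores, fell by 1.78 ± 0.59, a call lost without any of 4 arrays. The falls numbered 4 without array 3 of day 13, and 4 without array 4 or array 5 of day 7. Among channels, SCNN1A, the alpha subunit of the epithelial sodium channel, had 3.80, 3.49, 3.25, 3.66 and 3.62 on day 13, against 7.33, 6.75, 7.49, 4.68 and 6.93 on day 7, and fell by 3.07 ± 0.49. Of 23 channels, pumps and aquaporins, 2 fell and 1 rose (median -0.02); the rise was not called without array 2 or array 4 of day 13, and 2 rises were called without array 2 of day 7. Of 26 metal and other ion carriers, 2 fell and 1 rose (median -0.02). SLC39A8, an importer of zinc and manganese, fell by 1.87 ± 0.35, while SLC39A2 of the same family had the rise given above.

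Of 20 steroid and prostanoid receptors, 3 fell and 0 rose (median -0.07), and 14 of the 20 differences were negative. The share that fell was close to the 15.3% of all named genes, whose median difference was also negative, at -0.03. The list mean was 5.96, 6.10, 6.05, 6.05 and 5.92 on day 13, against 6.16, 6.30, 6.24, 6.42 and 6.23 on day 7, which did not overlap. The falls numbered 5 with array weights and 1 without arrays 4 and 5 of day 7. PGR, the progesterone receptor, was near the floor throughout, with 2.18, 2.91, 2.22, 2.72 and 2.52 on day 13, against 2.47, 3.09, 2.59, 2.49 and 2.53 on day 7, and ESR1, the estrogen receptor alpha, averaged 2.24 on day 13 and 2.36 on day 7. At levels this low a fall or a small rise in either gene could not be seen at these probe sets, and no large rise appeared. OXTR, the oxytocin receptor, had 2.91, 3.39, 2.54, 2.65 and 3.30 on day 13, against 4.65, 5.22, 3.01, 3.75 and 4.42 on day 7, and its difference of -1.25 ± 0.82 was not called (adjusted p = 0.379). PPARG, a fatty acid-binding nuclear receptor, fell by 1.36 ± 0.35. Of 11 prostaglandin enzymes, 3 rose and 1 fell (median -0.00). PTGIS, the prostacyclin synthase, fell by 1.35 ± 0.34. AKR1C4, an aldo-keto reductase, rose by 2.11 ± 0.73 on 1 of its 6 probe sets, with overlapping arrays, and lost the call without any of 6 arrays.

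The list of growth factor families showed more rises than falls. It was named for the FGF, EGF and VEGF families, and of its 22 genes 7 rose and 2 fell (median 0.26). CCN1, CCN2 and MET, which belong to none of these families, were among the 7. The rises numbered 3 without array 2 of day 7. The falls numbered 1 without array 1 or array 3 of day 13 or array 2 of day 7. MET, the receptor of hepatocyte growth factor, had 8.47, 8.76, 8.77, 9.39 and 8.73 on day 13, against 6.07, 6.27, 6.95, 7.16 and 6.22 on day 7, and rose by 2.29 ± 0.29 (adjusted p = 5.09e-09). FGF10, a stromal growth factor for epithelium, rose by 1.47 ± 0.31 on 1 of 3 probe sets. CCN1, a relative of CCN2, rose by 1.72 ± 0.63 but lost its call in 9 of 10 omissions of an array.

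Smaller families of signals changed in few members. In the list of the IGF system 2 of 15 rose, IGFBP1 and the hormone STC1 described above, and 1 fell (median -0.02). The fall was that of IGFBP3, a binding protein of the growth factors, at -0.86 ± 0.31 with overlapping arrays. The rises numbered 1 without array 4 of day 13, and IGFBP3 was not called without any of 6 arrays, among them arrays 2 and 4 of day 13 and arrays 1, 2, 3 and 5 of day 7. In the WNT pathway 3 of 19 rose and 2 fell (median 0.02), with LGR4, a receptor of R-spondins, rising by 1.11 ± 0.18 and WNT11, a ligand, falling by 1.63 ± 0.43. DKK1, a secreted WNT inhibitor linked to conceptus elongation in cattle, had 7.52, 8.86, 8.33, 8.27 and 9.35 on day 13, against 8.31, 6.63, 7.44, 7.34 and 8.23 on day 7, which overlapped and was not called (0.88 ± 0.68, adjusted p = 0.5). In the TGF-beta and activin family 2 of 24 rose and 0 fell (median -0.05); 1 rose without array 2 of day 7, and 1 fell without array 1 or array 5 of day 13.

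Transcription factors and immediate early genes mostly rose where they changed. Of 21 circadian and immediate early genes, 8 rose and 0 fell (median 0.65), and the list mean was 7.07, 6.75, 7.38, 7.22 and 7.05 on day 13, against 6.46, 6.42, 6.37, 6.63 and 6.40 on day 7. IER3, an early response regulator of cell survival, had 9.48, 9.04, 9.52, 9.71 and 8.97 on day 13, against 6.69, 5.84, 6.24, 7.14 and 7.08 on day 7 (difference 2.75 ± 0.44). NR4A1, an orphan nuclear receptor, rose by 1.75 ± 0.44, and EGR1, an early growth response factor, by 1.57 ± 0.53 with overlap and with 4 arrays whose omission ended the call. Of 34 developmental transcription factors, 7 rose and 1 fell (median 0.06); 2 fell without array 2 of day 13. EPAS1, the hypoxia-inducible factor 2 alpha, rose by 1.31 ± 0.22 and CEBPB, a bZIP factor, by 1.54 ± 0.41.

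Interferon-stimulated genes were higher on day 13, with 11 rises and 0 falls among 46 genes (median 0.94). The list mean was 6.58, 6.63, 6.73, 8.30 and 6.98 on day 13, against 6.12, 6.0, 6.08, 6.09 and 6.14 on day 7. All 5 day 13 arrays lay above all day 7 arrays, and array 4 stood apart from the other 4. Single members whose 5 day 13 arrays all exceeded the day 7 arrays numbered 19, against 8.79% of all named genes. Without array 4 of day 13, 2 members were called, and without array 3 of day 7, 6. The fit of the compared groups alone called 17, and array weights 20.

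IFI6, an interferon-induced mitochondrial protein, had 11.18, 11.11, 11.01, 12.83 and 11.03 on day 13, against 9.07, 8.08, 8.04, 8.56 and 8.98 on day 7, and rose by 2.89 ± 0.81 (adjusted p = 0.00643). Its rise was called with each array left out in turn. MX1, an antiviral GTPase, had 9.40, 9.17, 9.74, 12.36 and 10.11 on day 13, against 7.27, 7.40, 7.33, 7.88 and 8.57 on day 7 (difference 2.46 ± 0.84), and 5 omissions ended its call, among them that of array 4. OAS1X, an oligoadenylate synthetase, rose by 2.97 ± 1.09 (adjusted p = 0.047), a call lost in 8 of 10 omissions. IRF9, the DNA-binding part of the interferon-activated factor, rose by 1.72 ± 0.56, and IFITM1, a membrane protein that restricts viruses, by 1.68 ± 0.51; neither was called without array 4 of day 13, and IFITM1 was not called without array 3 of day 7 either.

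ISG15, a ubiquitin-like protein and a classical pregnancy marker in ruminants, had 8.35, 7.73, 8.58, 11.95 and 9.14 on day 13, against 6.63, 6.17, 6.52, 6.30 and 7.27 on day 7. The groups were separated, and array 4 was far above the rest. The difference of 2.57 ± 1.09 was not called by limma (adjusted p = 0.0971). Its SE rests on the spread within all 16 groups of the 79 arrays, and why the call was missed was not tested. MX2 was at the floor on 4 day 13 arrays, with 2.12, 2.55, 2.07 and 2.10, and at 7.29 on array 4, against 2.07 to 2.11 on day 7 (difference 1.15 ± 0.99, adjusted p = 0.571). By day 16 the means were 13.47 for ISG15 and 9.01 for MX2. Other immune lists changed in few genes. Of 25 antigen processing genes 4 fell and 1 rose (median 0.11); the falls numbered 1 without array 1 of day 13 or array 4 of day 7 and 2 without array 5 of day 13, and the rise was not called without array 4 or 5 of day 13 or array 1 or 5 of day 7. Of 37 complement and acute phase genes 3 rose, including CD55, which protects cells from complement (1.82 ± 0.30), and 1 fell (median -0.01); 2 fell without array 2, 3 or 5 of day 7. Of 48 chemokines and cytokines 4 rose and 2 fell (median 0.00); the rises numbered 1 without array 3 of either day and 2 without array 1, 2 or 4 of day 7.

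**Figure D3:**
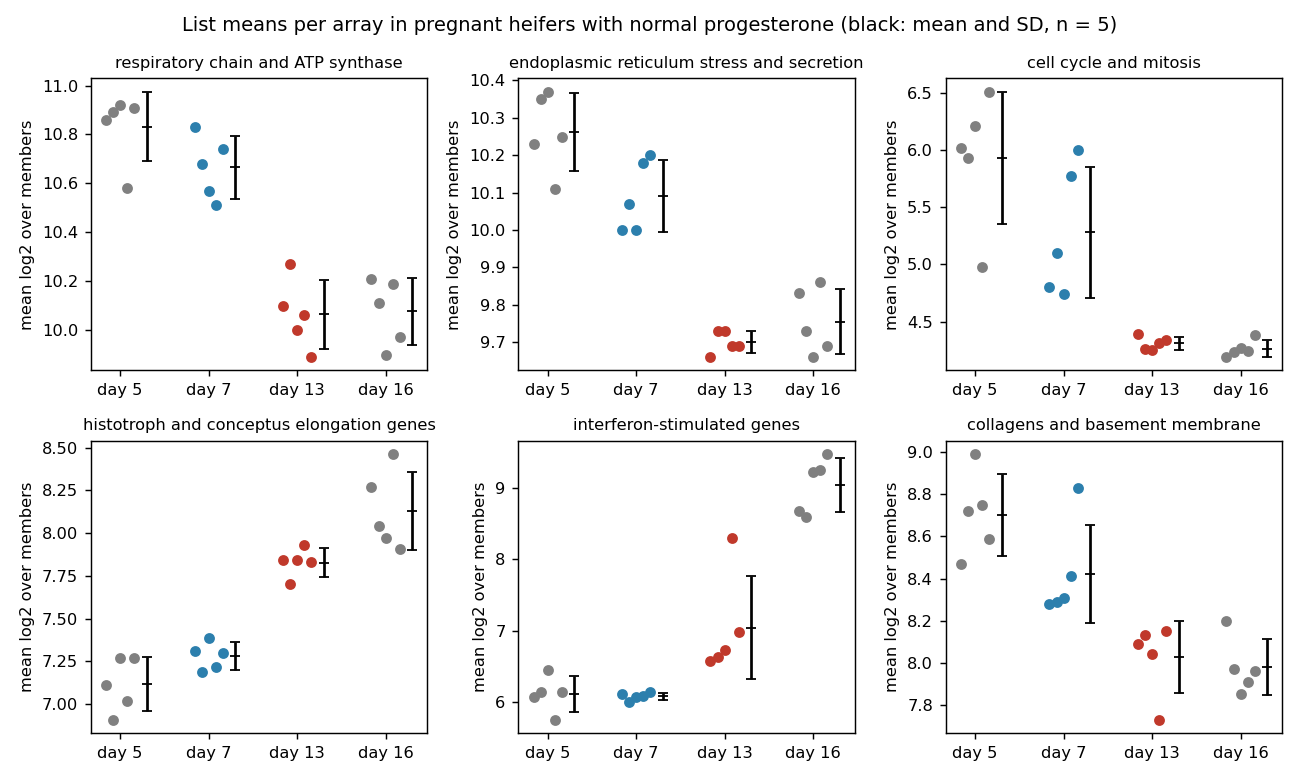
Mean log2 expression over the members of 6 gene lists in each array of pregnant heifers with normal progesterone on days 5, 7, 13 and 16 (5 arrays a day; day 7 blue, day 13 red, others grey), with the mean and SD in black. Arrays 4 and 5 of day 7 are the 2 highest of that day for the cell cycle list, at 5.77 and 6.0, and array 4 of day 13 stands apart for the interferon list at 8.30.

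In the lists not yet described, amino acid and peptide transporters had 2 rises and 1 fall among 17 (median -0.02). SLC1A1, a transporter of glutamate and aspartate, had 10.75, 10.45, 9.44, 11.52 and 10.66 on day 13, against 8.51, 9.07, 8.83, 8.80 and 7.10 on day 7, and rose by 2.10 ± 0.48, and without array 3 of day 13 the list had 1 rise. Retinoid and vitamin carriers had 3 rises and 3 falls among 18 (median -0.07), with 1 fall without array 3 of day 13 or array 5 of day 7. Ribosome biogenesis genes had 2 rises and 3 falls among 34 (median -0.04); the rises numbered 0 without array 5 of day 13 or array 1 of day 7, and 1 without array 3 or 4 of day 13 or array 2 or 5 of day 7. The single rise among glycosyltransferases was not called without array 1 or 4 of day 13 or array 4 or 5 of day 7.

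Markers of cell types were read on the same arrays. Epithelial and stromal markers were well expressed, as the label endometrium implies. Of 13 epithelial markers 3 rose and 1 fell (median 0.00), with a list mean of 7.66 to 8.06 on day 13 against 7.40 to 7.85 on day 7. EPCAM, an adhesion molecule of epithelial cells, had 13.53, 13.46, 13.57, 13.51 and 13.62 on day 13, against 12.37, 12.92, 12.87, 12.48 and 12.35 on day 7 (difference 0.94 ± 0.13, adjusted p = 2.91e-08). KRT19, an epithelial keratin, fell by 0.98 ± 0.35 with overlap, and its call was lost in 7 of 10 omissions, those of arrays 3, 4 and 5 of day 13 and of arrays 1, 2, 4 and 5 of day 7. Thus EPCAM and KRT19 differed in direction.

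Of 13 stromal markers 3 fell, among them COL1A1, and 1 rose (median -0.03), with list means of 9.81 to 10.39 on day 13 against 10.12 to 10.68 on day 7. The falls numbered 1 without array 4 or 5 of either day and 0 without arrays 4 and 5 of day 7 together. Of 15 endothelial markers 2 rose (median 0.32; 1 without array 3 of day 13 or array 2 of day 7): TEK, the angiopoietin receptor, by 0.77 ± 0.18 and EGFL7 by 0.73 ± 0.23. The endothelial mean was 5.50 to 6.37 on day 13 against 5.20 to 5.87 on day 7. Of 4 ciliated cell markers 1 fell (median -0.18), which was not called without array 4 or 5 of either day.

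No marker was called in smooth muscle (10 genes, median 0.20), macrophages (16, median 0.06) or T and NK cells (21, median -0.02). The same held for B and plasma cells (8, median -0.01), neutrophils and mast cells (11, median -0.01), red blood cells (6, median -0.02) and conceptus trophectoderm (12, median -0.02). Many of these markers had a mean under 3 on both days, where a fall or a small rise could hardly be seen. They were 3 macrophage, 9 T and NK, 6 B and plasma, 7 neutrophil and mast and 5 red blood cell markers. The lack of calls therefore does not show that these cells were unchanged. ACTA2, the smooth muscle actin, ranged widely on both days, with 11.48, 10.84, 9.70, 8.79 and 9.61 on day 13, against 10.38, 9.48, 9.47, 10.17 and 11.72 on day 7 (difference -0.16 ± 0.65). Of the 12 trophectoderm markers 11 were under the floor on both days, with list means of 2.68 to 2.82 on day 13 against 2.73 to 3.09 on day 7. Array 4 of day 13, highest in interferon-stimulated genes, had the lowest stromal mean of its day (9.81). The part of cell type proportions in the gene changes above was not tested.

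Whether the course differed in pregnancy was asked by comparing it with that in cyclic heifers, which shares no array with it. No probe set of 24016 had a different course in pregnant than in cyclic heifers at an adjusted p under 0.05 (limma; 0.0%), and 322 reached an unadjusted p under 0.05, against 1201 if no probe set differed. These p-values therefore ran higher than they would with no difference, for a reason that was not tested. The count of 322 is no measure of how alike the courses were. Of 2110 probe sets that rose in pregnant heifers, 1422 also rose in cyclic heifers, which is 67.4% of those of pregnant and 73.6% of the 1932 of cyclic heifers (8.04% of probe sets). Of 2303 that fell, 1540 also fell in cyclic heifers (66.9% of those of pregnant and 78.3% of the 1966 of cyclic heifers, which are 8.19% of probe sets), and 0 were called in opposite directions. Over all 24016 probe sets the differences of the 2 courses had a Pearson correlation of 0.893, across probe sets that are not independent.

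IGFBP1 rose by 7.35 in pregnant and by 6.81 in cyclic heifers, and UPK1B differed by -7.19 in pregnant and -8.43 in cyclic heifers. Over all named genes 8.77% rose and 12.9% fell in cyclic heifers. Respiratory chain genes fell in 51 of 62 in pregnant and in 46 of 62 in cyclic heifers. For the interferon list 11 rose in pregnant and 0 in cyclic heifers, but the difference itself was not called for any member: for IFI6 the difference of courses was 1.43 ± 1.15, for OAS1X 3.18 ± 1.55 and for IFITM1 1.40 ± 0.72 (adjusted p = 1.0 each). The day 13 means of this list were close, at 7.04 ± 0.72 in pregnant and 6.95 ± 0.63 in cyclic heifers (SD, n = 5 each). On day 7 they were 6.09 ± 0.05 in pregnant and 6.86 ± 1.32 in cyclic heifers, so the cyclic arrays of day 7 were higher on average and more spread. MSTN rose by 4.02 in pregnant and 2.40 in cyclic heifers, with a difference of courses of 1.62 ± 1.05. DKK1 differed by 0.88 in pregnant and rose by 2.75 in cyclic heifers, with a difference of courses of -1.88 ± 0.96. An adjusted p that misses the threshold does not show that these courses were alike.

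**Figure D4:**
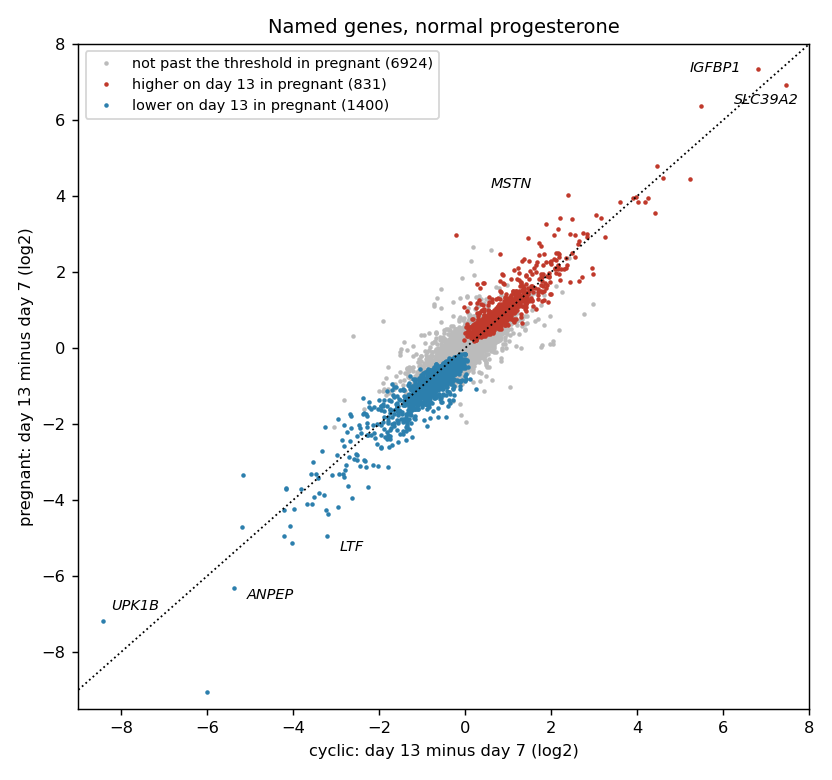
Log2 difference between day 13 and day 7 in pregnant heifers (vertical axis) against that in cyclic heifers (horizontal axis), both with normal progesterone, for 9155 named genes, with the dotted line marking equal change. Genes that rose (831, red) or fell (1400, blue) in pregnant heifers lie along the line, and the lowest point is LOC783399, at -9.06 in pregnant and -6.0 in cyclic heifers.

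Against pregnant heifers with high progesterone, 8 probe sets (0.0333%) had a different course, 4 in each direction (0.0167% each), and 1677 reached an unadjusted p under 0.05 against the same 1201. Of these, 5 carry a gene symbol. FABP3 had 6.01, 5.79, 6.02, 5.36 and 6.35 on day 13, against 9.53, 7.29, 7.74, 6.27 and 9.25 on day 7 with normal progesterone. With high progesterone FABP3 had 8.20, 7.72, 7.56, 5.26 and 8.89 on day 13, against 6.28, 4.18, 2.80, 5.93 and 4.12 on day 7. The course was therefore downward with normal progesterone (-2.11) and upward with high progesterone (2.86), a difference of courses of -4.97 ± 0.99 (adjusted p = 0.0199). The arrays overlapped between days in both courses, and the fall with normal progesterone was not called without array 4 of day 13 or without array 1 or array 5 of day 7.

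CASP9, the initiator caspase of the mitochondrial death pathway, had 7.28, 7.28, 6.23, 6.68 and 6.44 on day 13, against 6.17, 6.24, 6.24, 6.24 and 5.86 on day 7 with normal progesterone, a difference of 0.63 that was not called (adjusted p = 0.168). With high progesterone CASP9 had 5.65, 6.02, 5.67, 5.45 and 5.66 on day 13, against 6.74, 7.61, 7.22, 7.37 and 7.46 on day 7, a fall of 1.59 without overlap. Its courses differed by 2.22 ± 0.44 (adjusted p = 0.0199). CDK7, the kinase that activates cell cycle kinases and RNA polymerase, rose by 0.76 with normal progesterone and differed by -0.50 with high progesterone, which was not called, and its courses differed by 1.27 ± 0.27 (adjusted p = 0.0412).

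SMIM20, a small protein of complex IV assembly, had 9.33, 9.69, 9.22, 9.47 and 9.43 on day 13, against 10.63, 10.54, 10.83, 10.49 and 10.80 on day 7 with normal progesterone. With high progesterone it had 9.67, 9.57, 9.60, 9.60 and 9.60 on day 13, against 10.05, 9.99, 10.31, 10.27 and 10.07 on day 7. SMIM20 fell in both, by 1.23 and by 0.53, and the courses differed by -0.70 ± 0.14 (adjusted p = 0.0199). CLN8, a protein of the endoplasmic reticulum, fell by 1.05 with normal progesterone and differed by -0.07 with high progesterone, but its means were under 3 in all 4 groups. DGAT2 rose by 2.44 with normal progesterone and differed by -1.05 with high progesterone, and the difference of courses of 3.49 ± 0.88 was not called (adjusted p = 0.125).

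The count of 8 depends on single arrays. Leaving out a normal progesterone array of day 13 gave 1 (array 1), 2 (array 2) and 5 (array 3), and of day 7 gave 4 (array 1), 19 (array 2) and 1 (array 5). Leaving out a high progesterone array of day 13 gave 21 (array 4) and 5 (array 5), and of day 7 gave 3 (array 1), 3 (array 2), 15 (array 3) and 17 (array 4). The lists of change overlapped less than with cyclic heifers as counts, without a test of that difference: of 2110 rises, 901 were also called with high progesterone (42.7%, and 70.2% of its 1284, or 5.35% of probe sets), and of 2303 falls 1321 (57.4%, and 65.6% of its 2015, or 8.39% of probe sets). In each direction 1 of the probe sets called with normal progesterone was called the opposite way with high progesterone, and the differences of the 2 courses had a Pearson correlation of 0.802 over the 24016 probe sets. Deviations from the group mean had an SD of 0.50 and 0.52 on arrays 1 and 4 of day 13 with high progesterone. Among the 10 arrays of pregnant heifers with normal progesterone it was 0.24 to 0.32. Array 5 of day 7 in cyclic heifers had 0.57. What these arrays contribute to the overlaps was not tested. With high progesterone 5.73% of named genes rose and 12.9% fell. Respiratory chain falls numbered 51 with normal and 25 with high progesterone, cell cycle falls 25 and 7, and interferon rises 11 and 0. No member of these lists had a difference of courses that passed. Not every list showed such a gap. Falls with normal and high progesterone numbered 29 and 25 for the endoplasmic reticulum and 15 and 14 for glycolysis. They numbered 5 and 7 for serine and one-carbon enzymes and 8 and 11 for redox genes. For collagens they were 16 and 9, and for DNA replication 11 and 7. The interferon list averaged 7.04 ± 0.72 with normal and 7.13 ± 0.73 with high progesterone on day 13, against 6.09 ± 0.05 with normal and 6.85 ± 1.0 with high progesterone on day 7 (SD, n = 5 each), so the groups were close on day 13 and the spread on day 7 was larger with high progesterone. The cell cycle list averaged 4.31 ± 0.06 with normal and 4.30 ± 0.05 with high progesterone on day 13, against 5.28 ± 0.57 with normal and 4.71 ± 0.45 with high progesterone on day 7. The respiratory chain averaged 10.06 ± 0.14 with normal and 10.11 ± 0.21 with high progesterone on day 13, against 10.67 ± 0.13 with normal and 10.46 ± 0.07 with high progesterone on day 7.

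**Figure D5:**
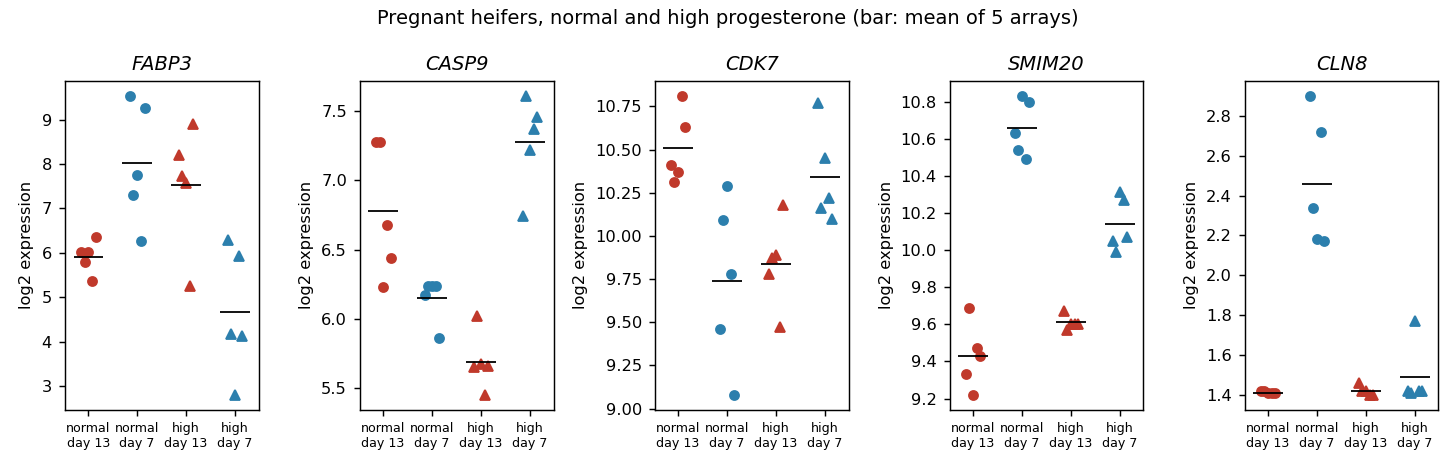
Log2 expression per array of the 5 named genes whose day 7 to 13 course differed between normal (circles) and high progesterone (triangles) in pregnant heifers, with day 13 in red left of day 7 in blue and bars at the means of 5 arrays; vertical axes differ and do not start at 0. FABP3 and CASP9 move in opposite directions in the means of the 2 treatments, and the fall of SMIM20 is larger with normal progesterone.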

How the data were processed

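Total RNA from endometrium was hybridised as biotin-labelled cRNA to Affymetrix bovine arrays, 1 array per sample. The deposited table gives the authors' log2 values for 24128 probe sets. The submitters' processing notes name RMA, GCRMA and limma without saying which made these values, and GCRMA-type correction compresses low levels toward a floor. All 112 Affymetrix control probe sets were left out. Of the remaining 24016, 13292 had 1 gene symbol in the platform annotation, 86 several and 10638 none. Where a gene had several probe sets (2913 of 9155 genes), the one brightest on average over the 79 arrays stood for it.

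Groups were taken from sample titles. Group means of the 16 groups were fitted to all 79 arrays with limma 3.58.1 in R 4.3.3 (lmFit, contrasts.fit, eBayes), which share 1 estimate of spread, and p-values were adjusted by Benjamini-Hochberg over 24016 probe sets. A call is an adjusted p under 0.05. Differences of courses were contrasts in the same fit. The number of arrays limits the precision. Tested on simulated data for the day 13 to day 7 comparison over 24016 probe sets, 76% of changes of 1 log2 unit and 96% of changes of 2 were recovered. Only 50 probe sets were changed per size, and 14 unchanged ones were called. The simulated noise was normal, independent between probe sets and of the same spread in all groups. A far smaller share of probe sets was changed than the 18.4% called in the real data, which makes the adjusted threshold stricter. Recovery in the real data can therefore differ. Differences of courses were not simulated.

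The named genes were the 15 highest and 15 lowest called differences with no overlap between days and an established symbol, up to 5 called members per list and direction, the 5 smallest p-values in each difference of courses, and a short fixed set including PGR, ESR1, OXTR, ISG15, MX2, ACTA2 and DKK1. The text names part of these. The 10 arrays, the 44 gene lists and this rule were chosen with earlier results of these data known. Of 1596 symbols written in the lists, 1187 were measured. Promoter and protein sequences were not used here. Alternatives covered the samples fitted, normalization, filter, moderation, array weights, a replicate block and omission of arrays.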

Additional observations from a re-analysis of the deposited data

Results flagged for a closer look

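In groups of 5 arrays, the highest or lowest was compared with the range of its group by Dixon's criterion, which chance alone meets in about 1 of 20 groups. Among 332 values tested, 30 had an array apart, and no cause was tested for any of them. Some were members of the same list or the mean of that list, so the 30 are not independent.

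On day 13, array 4 was apart and high for IFI6 (12.83), MX2 (7.29), IRF9 (9.45), IFITM1 (12.18), MAP2 (11.12), the mean of interferon-stimulated genes (8.30) and the mean of hexose and monocarboxylate transporters (5.21). The same array was apart and low for the means of collagens and basement membrane (7.73) and of stromal markers (9.81). Array 2 of day 13 was apart for IGFBP1 (9.01, low), ANPEP (5.26, high), CDCA7 (9.95, high) and the mean of T and NK cell markers (3.52, high). Array 3 of day 13 was apart for AKR1C4 (7.03, low), PPARG (4.46, high) and DAPL1 (4.02, high), and array 5 for PSAT1 (10.09, low).

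On day 7, array 2 was apart and high for PGR (3.09), DPP4 (5.88), HKDC1 (3.30) and RAB3B (3.59). Array 5 of day 7 was apart for SLC1A1 (7.10, low), PCK2 (6.54, high), CASP9 (5.86, low) and the mean of collagens and basement membrane (8.83, high). Array 1 of day 7 was apart for MYL3 (3.27, high) and the mean of antigen processing genes (7.63, low), array 4 for SCNN1A (4.68, low), and array 3 for the means of the FGF, EGF and VEGF families (5.20, high) and of T and NK cell markers (3.66, high).

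The day 7 to 13 course differed between normal and high progesterone in pregnant heifers, by the contrast of the courses in limma, for FABP3 (-4.97), CASP9 (2.22), CDK7 (1.27), CLN8 (-0.98) and SMIM20 (-0.70).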

How the results depend on the processing

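The count of probe sets that changed between day 13 and day 7 was 4413 and stayed within 1.5 times of it in every alternative run, between 3097 without arrays 4 and 5 of day 7 (an omission chosen after seeing the data) and 6044 with array weights. It was 3712 to 4231 with each of the 10 arrays left out in turn. The share of calls that were higher was 47.8%, against 48.1% after quantile normalization and 44.3% after median centring. Of the 114 called genes that the text draws on, 96 were run in every alternative, of which 79 kept their call throughout and 17 did not. The other 18 were outside the filter that kept the probe sets above the median level, and 13 of them kept their call in the alternatives run and 5 did not. None of the 114 reversed. Of 88 counts of list members called, higher or lower, 18 moved by over 1.5 times with array weights, all upward, 23 without arrays 4 and 5 of day 7, all downward, and 15 in the fit of the compared groups alone, 10 of them upward. Without arrays 4 and 5 of day 7 the falls were 3 rather than 6 for the proteasome and 4 rather than 7 for epithelial junctions. For pregnant against cyclic heifers the count was 0 under every other setting run, with each of 20 arrays left out, but for 1 without arrays 4 and 5 of day 7 in pregnant heifers. For normal against high progesterone the count of 8 became 17 after quantile normalization (7 higher), 14 after median centring (3 higher), 134 with array weights and 33 without 5 arrays of other groups farthest from their group mean (chosen after seeing the data), and 1 to 21 with each of 20 arrays left out; the cause was not tested. Same-numbered arrays of day 13 and day 7 deviated together with correlations between -0.0117 and 0.179, so the replicate numbers were not taken to pair samples. For same-numbered pregnant and cyclic arrays these were -0.0447 to 0.289 on day 7 and -0.00637 to 0.157 on day 13. Whether same-numbered arrays of a day share a batch was not tested. With the replicate block 4422 probe sets were called for day 13 against day 7, 0 for the difference from cyclic heifers and 8 for that from high progesterone. Low levels limit what can be seen: 126 called probe sets had a mean under 3 on day 13 only, 81 on day 7 only and 59 on both days.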

Other observations

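Of the 8 probe sets whose course differed between normal and high progesterone, 3 have no gene symbol in the annotation. Their log2 difference between day 13 and day 7 was 4.38 with normal progesterone and -1.31 with high progesterone for the probe set with the largest difference of courses (5.69 ± 0.87, adjusted p = 0.000262 by limma), 3.28 and 0.80 for the next (2.48 ± 0.50, adjusted p = 0.0233), and -2.64 and -0.72 for the last (-1.92 ± 0.38, adjusted p = 0.0199).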
